A study of Mus musculus with 3 samples.

Results

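The nuclear genes of respiratory complex I, NADH:ubiquinone oxidoreductase, were examined in adult mouse hearts. All gene probes of the array whose gene name starts with Nduf were taken, which were 57 of 41174 probes and stood for 38 genes. By textbook role these were 7 core subunits, 29 accessory subunits and 2 assembly factors. Of the 57 probes, 45 carried a RefSeq accession of the reference table, and the symbol differed from the array's own for 0 of them. Each of 3 two-colour Agilent arrays (replicates 1 to 3) set Cy5-labelled RNA from a pool of 2 *Lrrc10*-/- hearts against Cy3-labelled RNA from a pool of 2 WT (*Lrrc10*+/+) hearts. All mice were of strain C57/BL6 and 2 months old. The *Lrrc10* null allele is carried in every tissue, and its protein is made in heart muscle cells. The study's methods count the arrays as 3 independent biological replicates, each from littermate hearts. The labels call the WT RNA a reference pool, without saying whether 1 WT pool served every array. If it did, the p-values below leave out the spread between WT pools.

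Complex I is the entry point of electrons from NADH into the respiratory chain of the inner mitochondrial membrane. Its core subunits hold the flavin and the iron-sulfur clusters that carry electrons to ubiquinone, or form the proton-pumping membrane arm. The membrane core subunits are encoded by mitochondrial DNA and were not analysed here. The accessory subunits surround the core and are needed to assemble or stabilize it, and the assembly factors help to build the complex without being part of it. The heart is rich in mitochondria, and the genes of the complex are among the more highly expressed genes of heart muscle.

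Values are log2 ratios of Cy5 over Cy3, so that a positive value means a brighter signal in Cy5, the channel labelled *Lrrc10*-/-. The deleted gene went against the labels. The *Lrrc10* probe read 14283, 20828 and 17703 in the Cy5 processed signal on replicates 1, 2 and 3, and 476.5, 442.6 and 352.3 in Cy3. It was far brighter in the channel labelled *Lrrc10*-/- on each array, with a mean log2 ratio of 5.37 ± 0.41 (SD, n = 3 arrays) and an adjusted p of 2.51e-04 from limma. Directions are therefore given by channel, and a direction read from the *Lrrc10* probe is opposite to that of the channel labels. The heart label was borne out by heart muscle markers, since all 13 probes of the 8 marker genes were well above background in both channels of every array.

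No complex I probe was called as different between the channels. The mean ratio of a probe was tested against 0 with limma, with Benjamini-Hochberg adjustment over all 29576 probes that passed a mean processed signal of 20. Of the 57 probes 54 passed, and they stood for all 38 genes. The number of complex I probes called was 0, against 0.00676% of all tested probes brighter in Cy5 and 0.0% brighter in Cy3, and the lowest adjusted p among them was 1.00. A count of 0 from 3 arrays does not show that these genes were alike in both channels. At an unadjusted p under 0.05 there were 5 complex I probes against 3.07% of all tested probes, and each of the 5 had at least 1 array with a spot at the scanner's upper limit. Among the complex I probes with no such spot there were 0, against 2.96% of all such probes tested, and limma called 0.00681% of these in Cy5. The methods' t-test, run in place of limma, also called 0 probes.

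Many of these genes were too bright for the scanner. A spot is called saturated by the image software when most of its pixels lie at the upper limit, and 22 of the 54 tested probes (40.7%) were saturated in some channel of some array, against 0.673% of all tested probes. The saturated probes belonged to 21 genes, of which 13 had no other tested probe. The remaining 32 probes stood for 25 genes and were never marked as saturated, though 6 of them had some pixels at the limit, all on replicate 3. The 2 sets are described apart, because a signal at the limit holds no ratio.

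**Figure D1:**
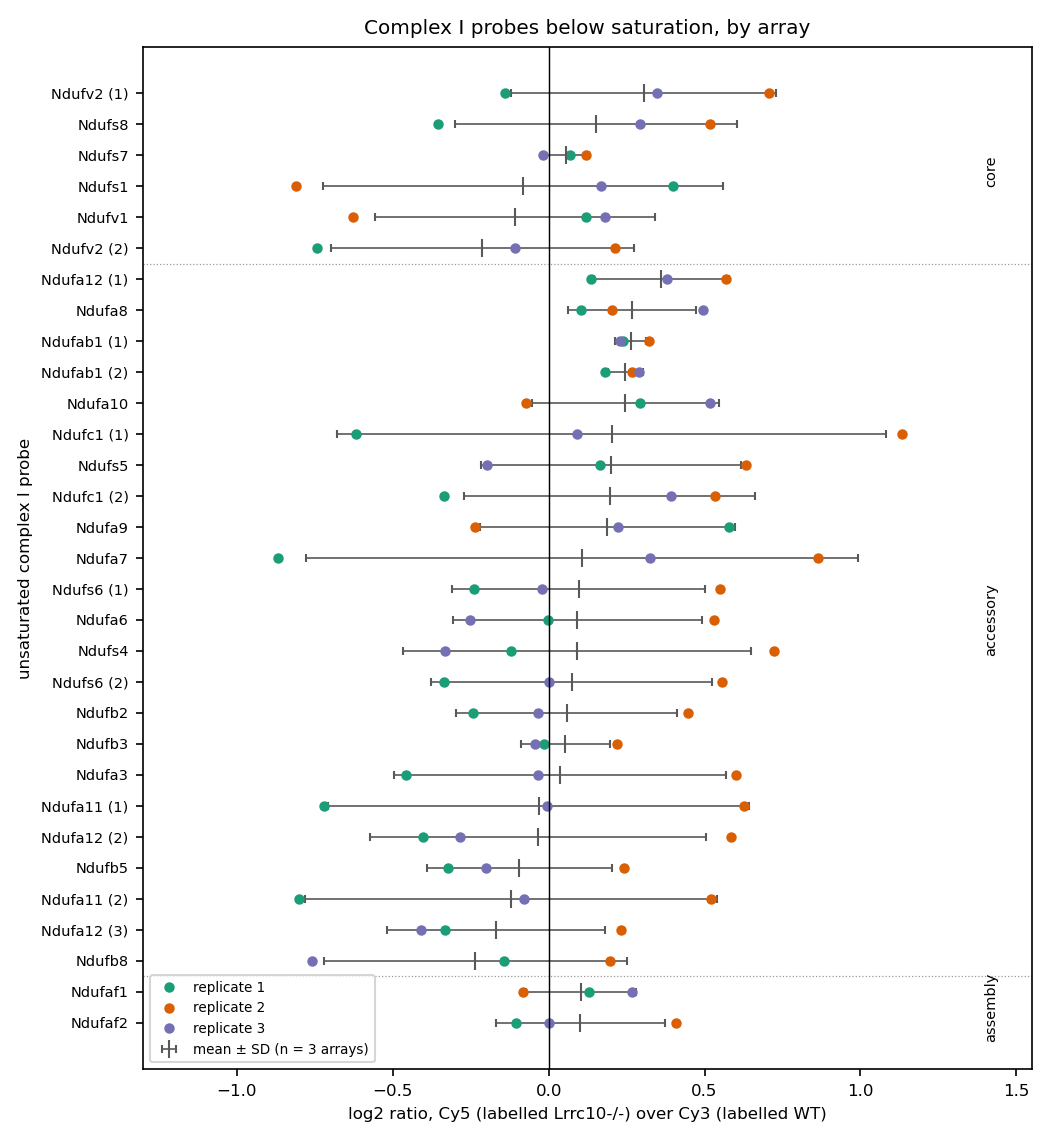
Log2 ratio (Cy5, labelled Lrrc10-/-, over Cy3, labelled WT) of 31 of the 32 unsaturated complex I probes on replicates 1, 2 and 3 (dots), with the mean ± SD over the 3 arrays, ordered by role and mean. Most accessory subunits lie below 0 on replicate 1 and above 0 on replicate 2, and the probes with all dots on one side of 0 are those of Ndufa12, Ndufa8 and Ndufab1.

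The core subunits that carry the flavin and the iron-sulfur clusters lay on both sides of 0 within an array. On replicate 2 the probes of *Ndufs1* and *Ndufv1* were brighter in Cy3, while those of *Ndufv2*, *Ndufs8* and *Ndufs7* were brighter in Cy5. Of the 7 unsaturated core probes, 0 had the same sign on every array, against 10.1% of all unsaturated probes in Cy5 and 10.8% in Cy3. Probes that parted on replicate 2 are shown here, each as printed on the array, 5′ to 3′, with no part in capitals.
*Ndufv1* (A_51_P364339): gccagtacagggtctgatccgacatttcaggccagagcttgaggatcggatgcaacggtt
*Ndufv2* (A_51_P261470): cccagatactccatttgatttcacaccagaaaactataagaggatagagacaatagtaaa
*Ndufs8* (A_51_P247441): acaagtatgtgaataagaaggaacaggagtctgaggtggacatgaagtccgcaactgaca

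*Ndufv1* encodes the subunit that binds the flavin and NADH. Its log2 ratios were 0.12, -0.63 and 0.18 on replicates 1, 2 and 3, a mean of -0.11 ± 0.45 (SD, n = 3) with a 95% interval from -0.64 to 0.42. Its Cy3 processed signal was 80949, 158557 and 100042, and its Cy5 signal was 87998, 102706 and 113327. Replicate 2 stood apart from the other arrays in its Cy3 signal, and on replicate 3 a share of 43.1% of the pixels of its Cy5 spot was at the limit. *Ndufs1*, the largest iron-sulfur subunit, had ratios of 0.40, -0.81 and 0.17, a mean of -0.08 ± 0.64 (SD, n = 3). For both genes the arrays lay on either side of 0 and the lowest ratio was that of replicate 2.

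*Ndufv2*, an iron-sulfur subunit that sits beside *Ndufv1* in the NADH-oxidizing tip, ran the other way. Its bright probe had ratios of -0.14, 0.71 and 0.35, a mean of 0.31 ± 0.42 (SD, n = 3) with an interval from -0.21 to 0.82. A second *Ndufv2* probe (A_51_P212342) lay near background, at processed signals of 35.7 to 62.2, and had ratios of -0.74, 0.21 and -0.11. *Ndufs8*, which carries iron-sulfur clusters towards the ubiquinone site, had ratios of -0.35, 0.52 and 0.29, a mean of 0.15 ± 0.45 (SD, n = 3). Both bright probes were lowest on replicate 1 and highest on replicate 2.

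*Ndufs7*, which holds the last cluster before ubiquinone, was the steadiest core subunit. Its ratios were 0.07, 0.12 and -0.02, a mean of 0.06 ± 0.07 (SD, n = 3) with an interval from -0.38 to 0.49. Another core gene, *Ndufs3*, had its only probe saturated in Cy5 on replicate 3, and its ratios were 0.35 and -0.08 on the other arrays. A second *Ndufs1* probe (A_51_P273817) was not well above background in either channel of any array and was not tested.

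The assembly factors showed small ratios with no shared order of the arrays. *Ndufaf1*, which acts in building the membrane arm, had ratios of 0.13, -0.08 and 0.27, a mean of 0.10 ± 0.18 (SD, n = 3) with an interval from -0.31 to 0.52. *Ndufaf2*, a late assembly factor, had ratios of -0.11, 0.41 and 0.00, a mean of 0.10 ± 0.27 (SD, n = 3) with an interval from -0.34 to 0.54. Neither was called. By the reference table, 11 further probes named on the array by clone carry Nduf symbols today. They stood for 6 genes, namely the accessory subunit gene *Ndufv3* and the assembly factor genes *Ndufaf3* to *Ndufaf7*, and 0 of them were saturated. Among these 11 probes 3 were brighter in Cy5 and 1 in Cy3 on all arrays (against 10.1% and 10.8% of all unsaturated probes), and each had an adjusted p of 1.00. The probe in Cy3 was 1 of the 2 probes of *Ndufaf7* (A_52_P180826), a methyltransferase, at ratios of -0.27, -0.29 and -0.29. The other *Ndufaf7* probe (A_52_P406459) had ratios of -0.31, -0.28 and 0.33, so the probes parted on replicate 3.

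The accessory subunits lay mostly on one side of 0 on replicates 1 and 2, and the side differed between those arrays. On replicate 1 their 23 unsaturated probes had a median log2 ratio of -0.24, with 16 probes brighter in Cy3. On replicate 2 the median was 0.53, with 21 of 23 brighter in Cy5. On replicate 3 it was -0.02, with 10 brighter in Cy5 and 13 in Cy3. Thus the same subunits lay on opposite sides of 0 on different arrays, and 16 of the 23 probes were brighter in Cy3 on replicate 1 and in Cy5 on replicate 2. Over all 32 unsaturated complex I probes the medians were -0.13, 0.43 and 0.00, against 0.01, 0.01 and -0.01 over all 29377 unsaturated probes tested. Over the unsaturated probes with a mean processed signal above 10000, of which there were 2161 on the array, the medians were 0.00, 0.08 and 0.02. The sign pattern of Cy3, Cy5 and Cy3 on replicates 1, 2 and 3 was held by 13 of the 32 complex I probes (40.6%) and by 15.1% of all unsaturated probes.

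The unsaturated accessory probes with the widest spread between arrays were those of *Ndufa7*, *Ndufc1* and *Ndufa11*. *Ndufa7* (A_51_P263756) had ratios of -0.87, 0.86 and 0.32, an SD of 0.89. *Ndufc1* (A_52_P270888), a subunit of the membrane arm, had ratios of -0.62, 1.13 and 0.09, an SD of 0.88. The 2 probes of *Ndufa11*, a membrane arm subunit, had ratios of -0.72, 0.63 and 0.00 and of -0.80, 0.52 and -0.08. In all 4 the Cy3 signal exceeded the Cy5 signal on replicate 1 and fell short of it on replicate 2. The core subunit *Ndufs1*, with an SD of 0.64, was the other one among the 5 widest, with the opposite order.

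Across the 32 unsaturated probes the ratios of replicates 1 and 2 were inversely related, with a Pearson r of -0.61 (Spearman rho -0.54). The r was 0.27 between replicates 1 and 3 and -0.22 between replicates 2 and 3. Over the 2161 bright unsaturated probes of the array these were -0.26, 0.15 and -0.23, and over all unsaturated probes 0.10, -0.04 and -0.18. These are descriptions across probes, which share the arrays and are not independent. Between the GC percent of the probes and their ratios the r was -0.20 on replicate 1, -0.19 on replicate 2, 0.03 on replicate 3 and -0.31 for the mean ratio, against -0.11 for the mean ratio over all unsaturated probes.

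Markers of other cells also differed between the channels of replicate 2. The unsaturated atrial probes had median ratios of -0.30, 1.45 and -0.54 on replicates 1, 2 and 3, and those of red blood cells 0.45, 1.02 and -0.32. The endothelial probes had medians of 0.15, -0.57 and -0.17, and the fibroblast probes 0.37, -0.65 and -0.06. Of the atrial markers, 6 of 8 probes were well above background in both channels of every array, and *Bmp10* was in none. On replicate 2 the tested probes of *Sln* (3.69), *Myl7* (3.41) and *Myl4* (1.41 at the lower of its probes) were brighter in Cy5 and those of *Nppa* (-0.82 and -0.61) in Cy3. Both *Nppa* probes were brighter in Cy3 on all arrays, as was a second *Sln* probe that was too dim to be tested. The summed atrial signal, which *Nppa* dominates, was lower in Cy5 on each array, with log2 ratios of -0.97, -0.55 and -0.76, and ranged from 83738 to 145822 in Cy3 and from 49528 to 99371 in Cy5. For endothelium 8 of 11 probes were well above background throughout, with sums of 24526 to 51062 in Cy3 and 22662 to 32117 in Cy5. For red blood cells 7 of 9 were, with sums of 422112 to 603203 in Cy3 and 457225 to 717318 in Cy5, which include 4 saturated probes of *Hbb-b1* and *Hba-a1*. For fibroblasts 7 of 13 were, with sums of 123712 to 193716 in Cy3 and 126638 to 197646 in Cy5. Skeletal muscle probes had medians of 0.19, 0.00 and -0.09, fat 0.46, -0.28 and -0.95 and leukocytes -0.14, -0.32 and 0.05. Of the brown fat markers *Ucp1* and *Elovl3* were never well above background, while *Cidea* was on every spot, with ratios of -0.23, -0.09 and -0.34. The heart muscle probes had medians of 0.11, -0.42 and 0.59 over the 5 that were unsaturated, and the other 8 were saturated. The part of these cells in the complex I ratios was not tested. In pooled tissue RNA, fewer muscle cells and less RNA per muscle cell cannot be told apart.

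The unsaturated probes brighter in the same channel on all arrays numbered 4 in Cy5 (12.5%, against 10.1% of all unsaturated probes) and 0 in Cy3 (against 10.8%). They belonged to 3 accessory subunit genes, and none was called by limma. Over the other arrays the counts were 11 in Cy5 without replicate 1 (against 22.1% of all unsaturated probes), and 9 in Cy5 and 13 in Cy3 without replicate 2 (against 25.9% in either). With normexp and a plain median centring of each array, used in place of the deposited dye normalization, 19 were brighter in Cy5 throughout, against 41.2% of all unsaturated probes. *Ndufab1*, the mitochondrial acyl carrier protein that serves both complex I and fatty acid synthesis in mitochondria, supplied 2 of them. Its probe A_51_P208801 read 1003, 1440 and 923.2 in Cy3 and 1184, 1799 and 1081 in Cy5, with ratios of 0.24, 0.32 and 0.23. Its probe A_52_P303235 had ratios of 0.18, 0.27 and 0.29. Both stayed within a narrow range, with means of 0.26 ± 0.05 and 0.25 ± 0.06 (SD, n = 3). The intervals from the fit, which draws on the spread of all probes, ran from -0.17 to 0.69 and from -0.17 to 0.66 and included 0. Another probe of the gene (A_52_P507199) was not well above background in either channel of any array. Its brightest probe (A_52_P1093473) had a wider spread, with deposited ratios of 0.39, 0.59 and -0.07. That probe was saturated in Cy5 on replicate 3, and 25% and 50% of its Cy5 pixels were at the limit on replicates 1 and 2.

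*Ndufa8*, an accessory subunit of the membrane arm on its intermembrane face, had ratios of 0.10, 0.20 and 0.50 at its unsaturated probe, a mean of 0.27 ± 0.20 (SD, n = 3) with an interval from -0.18 to 0.72. *Ndufa12*, which takes part in joining the NADH-oxidizing tip to the rest of the complex, gave a mixed answer. Its probe A_52_P724940 had ratios of 0.14, 0.57 and 0.38, a mean of 0.36 ± 0.22 (SD, n = 3), but some of its pixels were saturated. Its other probes, which overlap in sequence, had ratios of -0.40, 0.58 and -0.28 and of -0.33, 0.23 and -0.41. They are shown here with the 40 shared bases in capitals.
*Ndufa12* (A_51_P458540): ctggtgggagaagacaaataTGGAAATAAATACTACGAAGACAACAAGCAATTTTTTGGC
*Ndufa12* (A_51_P458538): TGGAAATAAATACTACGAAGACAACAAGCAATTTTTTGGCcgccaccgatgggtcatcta
The overlapping pair kept the same order of signs on each array, and both differed in sign from the remaining probe on replicates 1 and 3.

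The spread between arrays was close to that of all unsaturated probes and above that of the bright ones. The SD of the 32 unsaturated probes ranged from 0.05 to 0.89 with a median of 0.42, against a median of 0.39 over all unsaturated probes. Over the unsaturated probes with a mean processed signal above 10000 the median was 0.34, and 23 of the 32 complex I probes were that bright. The 95% interval of the mean had a median half-width of 0.52 on the log2 scale (a 1.44-fold change) and included 0 for all 32 probes.

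Of the 22 saturated probes, 5 were at the limit in both channels on all arrays. *Ndufb9* and *Ndufa13*, accessory subunits of the membrane arm that the study followed up by quantitative PCR, were among them. *Ndufb9* read an unnormalized mean signal of 65244, 65242 and 65244 in Cy3 and 65262, 65261 and 65262 in Cy5. *Ndufa13* read 65244, 65244 and 65243 in Cy3 and 65262, 65262 and 65261 in Cy5. The highest mean signals of any spot were 65244 in Cy3 and 65262 in Cy5 on each array, so a brighter sample would have been read at the same value. The unnormalized log2 ratios of both probes were 0.0004 on each array, while the deposited ratios, taken after dye normalization, were -0.98, -0.60 and -0.67 for *Ndufb9* and -0.93, -0.57 and -0.62 for *Ndufa13*. No fold change is given for them.

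**Figure D2:**
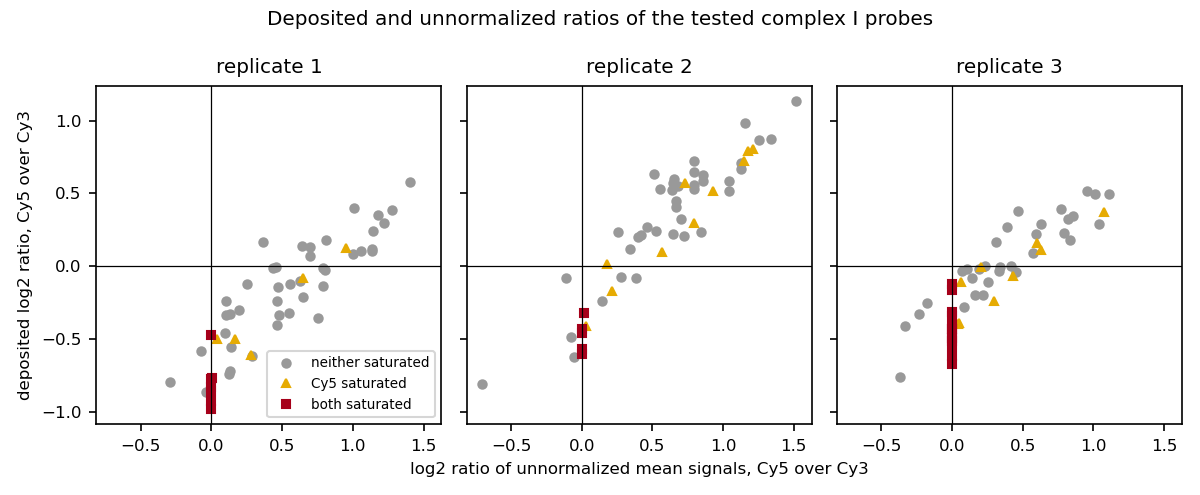
Deposited log2 ratio (vertical) against the log2 ratio of unnormalized mean signals (horizontal), both Cy5 over Cy3, for the 54 tested complex I probes on each array, marked by saturation. Spots saturated in both channels stand at an unnormalized ratio of 0 and at deposited ratios below 0 on every array, with medians of -0.83, -0.46 and -0.43.

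The same held for every complex I spot at the limit in both channels. There were 7, 5 and 13 of them on replicates 1, 2 and 3, with median unnormalized ratios of 0.0004 on each array and median deposited ratios of -0.83, -0.46 and -0.43, and all of them were below 0. Spots saturated in Cy5 alone numbered 5, 10 and 9, with median deposited ratios of -0.50, 0.41 and -0.07. Spots saturated in neither channel had medians of -0.12, 0.52 and 0.00. Over the whole array the spots saturated in both channels had deposited medians of -0.71, -0.40 and -0.40, with a highest value of -0.29, -0.13 and -0.08.

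The study selected probes with a p under 0.05 and a ratio of at least 1.2 in one direction on every array. Its methods do not say which p this was, and it was taken here as the spot p of each array. So read, the selection took 5 complex I probes in Cy3, against 0.511% of all tested probes, 13.1% of the saturated ones and 0.426% of the unsaturated ones. In Cy5 it took 0, against 0.406% of all tested probes. The 5 probes were those of *Ndufb9*, *Ndufa13*, *Ndufb10*, *Ndufb8* and *Ndufs5*, all accessory subunits and all saturated. With the p of limma in place of the spot p the count in Cy3 was 5 as well. *Ndufb10* and *Ndufs5* were saturated in both channels of every array, and *Ndufb8* (A_51_P247873) in both channels except Cy3 on replicate 2, where it read 64062. With saturated probes left out the selection held 0 complex I probes in either direction, which follows from all 5 being saturated. With normexp and median centring it held 0 as well, and there *Ndufb9* and *Ndufs5* (A_51_P214916) had mean ratios of -0.0093 and -0.0082.

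On all arrays, 7 saturated complex I probes were brighter in Cy3 and 2 in Cy5, against 42.2% and 2.51% of the 199 saturated probes tested. The count in Cy3 was 17 without replicate 2 (against 75.4% of the saturated probes), and 0 with normexp and median centring (against 0.503%). Those in Cy3 were the 5 named above with *Ndufb11* and *Ndufa4*. *Ndufa4* was long counted with complex I and has since been assigned to cytochrome c oxidase. The 5 complex I probes at the limit in both channels throughout were all among them, as were all 36 such probes of the array. The 2 probes in Cy5 were those of *Ndufa8* (A_51_P475502) and *Ndufb6*. *Ndufa8* was saturated in Cy5 on replicate 3 only, and had ratios of 0.10 and 0.23 on the others, where 29.8% and 35.5% of its Cy5 pixels were at the limit. *Ndufb6*, a membrane arm subunit, was saturated in Cy5 but not in Cy3 on every array, with deposited ratios of 0.12, 0.73 and 0.16. Its adjusted p from limma was 1.00, and no fold is given because its Cy5 readings were at the limit.

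**Figure D3:**
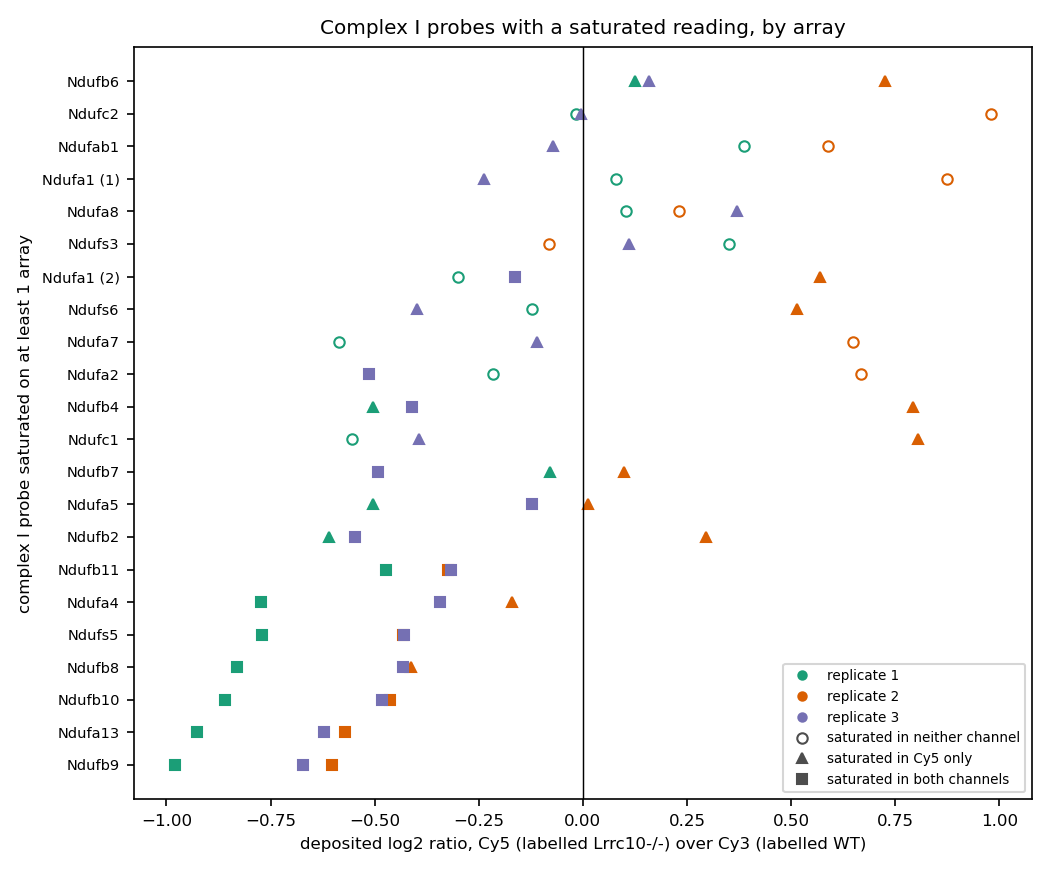
Deposited log2 ratio (Cy5, labelled Lrrc10-/-, over Cy3, labelled WT) of the 22 complex I probes saturated on at least 1 array, by replicate (colour) and by which channels were saturated on that array (shape). The squares, saturated in both channels, all lie below 0, and 7 probes lie below 0 on every array.

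Saturation came and went between the arrays. Of the 22 probes, 12 were saturated on all arrays, 3 on 2 arrays and 7 on 1, and 9 were never saturated in Cy3. The 7 probes saturated on 1 array were all saturated on replicate 3 and belonged to *Ndufa1*, *Ndufa2*, *Ndufa7*, *Ndufa8*, *Ndufab1*, *Ndufc2* and *Ndufs3*. On replicate 2, where the software did not mark them, 6 of the 7 were brighter in Cy5, with ratios from -0.08 for *Ndufs3* to 0.98 for *Ndufc2* and a median of 0.65. Part of the Cy5 pixels was at the limit there too for *Ndufab1* (50%), *Ndufa8* (35.5%) and *Ndufa1* (9.84%). Over all 22 probes the median deposited ratio was -0.49, 0.26 and -0.37 on replicates 1, 2 and 3.

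In 8 genes a saturated and an unsaturated probe could be compared. On replicate 3 the saturated probe was at the limit in all 8, and its deposited ratio was the lower one in 7, the exception being *Ndufb8*. It was at the limit in 3 of the genes on replicate 1 and in 5 on replicate 2. In each of these it was lower than the mean of the gene's unsaturated probes. For *Ndufc1* on replicate 2 it stood at 0.80, between the unsaturated probes at 0.53 and 1.13. The saturated probe of *Ndufs5* stood at -0.77, -0.43 and -0.43. Its other probe (A_52_P1076033) stood at 0.16, 0.63 and -0.20, at processed signals of 30.5 to 67.3, close to background. *Ndufb8* had ratios of -0.83, -0.41 and -0.43 at its saturated probe and -0.14, 0.20 and -0.76 at the other. Neither unsaturated probe was brighter in Cy3 on every array, while both saturated ones were. Because a signal at the limit holds no ratio, the order of the probes describes the deposited values only.

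*Ndufs6*, an accessory subunit that binds zinc, allowed the closest comparison, since its 3 probes share 33 bases. They are shown with the shared bases in capitals.
*Ndufs6* (A_51_P335077): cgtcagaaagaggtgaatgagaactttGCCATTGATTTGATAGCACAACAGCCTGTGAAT
*Ndufs6* (A_51_P375034): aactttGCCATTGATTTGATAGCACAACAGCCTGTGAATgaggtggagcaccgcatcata
*Ndufs6* (A_52_P685828): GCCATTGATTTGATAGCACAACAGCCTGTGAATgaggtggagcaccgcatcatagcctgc
The middle probe was saturated in Cy5 on replicates 2 and 3 and the others were never marked, though 14.5% and 32.8% of their Cy5 pixels were at the limit on replicate 3. On replicate 1 the ratios were -0.34, -0.12 and -0.24 in the order shown, and on replicate 2 they were 0.56, 0.51 and 0.55. On replicate 3 they were 0.00, -0.40 and -0.02, with unnormalized Cy5 signals of 58778, 65262 and 62662 and Cy3 signals of 49961, 63362 and 58327. On replicate 1, with no probe marked as saturated, they lay within 0.21 of each other. The deposited ratio of the middle probe on replicates 2 and 3 comes from a Cy5 signal at the limit.

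**Figure D4:**
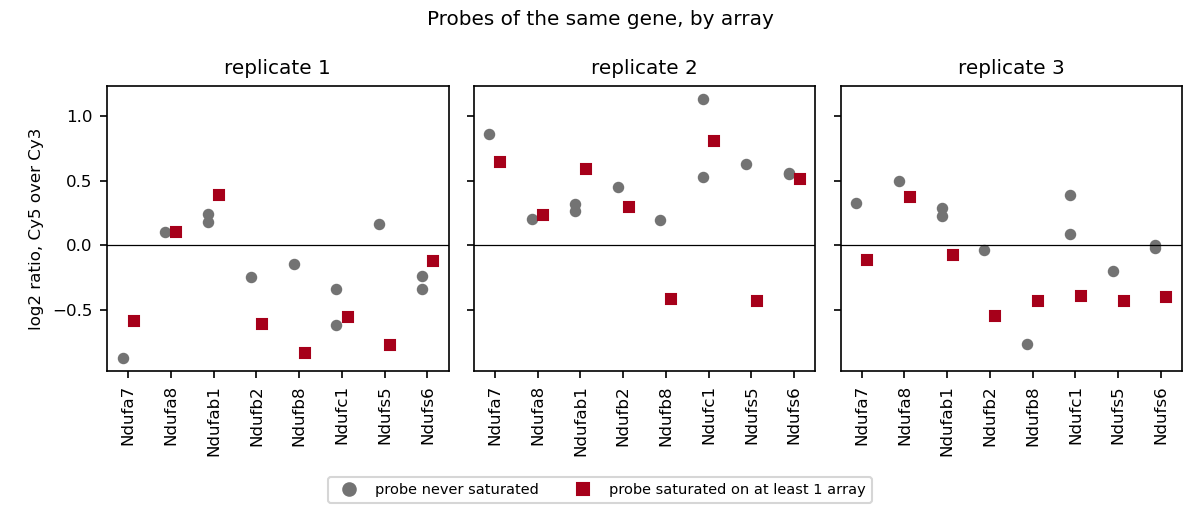
Log2 ratio (Cy5 over Cy3) of saturated and unsaturated probes of the 8 complex I genes that have both, on each array. On replicate 3 the saturated probe is the lower one in 7 of the 8 genes.

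The other lists of the respiratory chain were set beside the complex I genes. The 20 probes of 11 further complex I assembly genes, such as *Acad9*, *Ecsit* and *Nubpl*, were all unsaturated and had medians of 0.03, -0.03 and 0.06. Their single ratios lay on both sides of 0, from -0.71 for *Atp5sl* (A_52_P330201) to 1.02 for *Acad9* (A_52_P73208), both on replicate 1. Of these probes 1 was brighter in Cy5 on each of the arrays (against 10.1% of all unsaturated probes) and 0 were brighter in Cy3 (against 10.8%), and limma called 0. Complex IV, taken by symbols from Cox4 to Cox8, had unsaturated medians of -0.45, 0.43 and -0.17 over 9 probes. Complex II had medians of 0.12, -0.34 and 0.41 over 4 unsaturated probes, and complex III 0.41, 0.24 and 0.17 over only 2. ATP synthase, taken as symbols starting with Atp5, had medians of -0.46, 0.15 and 0.14 over 13. The symbol rules also took in genes that are no subunits, such as *Cox4nb* and *Atp5sl*, and *Atp5sl* also counts among the assembly genes.

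Saturation was shared with the other complexes. It touched 9 of 11 tested probes of complex III, 10 of 19 of complex IV, 14 of 27 of ATP synthase and 1 of 5 of complex II. The saturated probes brighter in Cy3 on all arrays were 5, 6, 9 and 0 of them, against 42.2% of all saturated probes. The study's selection took 2, 3, 3 and 0 of these in Cy3, against 13.1%. Among the unsaturated probes of these complexes it took 0 in either direction, and limma called 0.

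The transcriptional regulators of nuclear respiratory genes, namely the coactivators *Ppargc1a* and *Ppargc1b*, the receptors *Esrra*, *Esrrg* and *Ppara*, and *Nrf1*, *Gabpa*, *Tfam* and *Yy1*, had 21 probes, none saturated. Their medians were 0.08, -0.02 and 0.23, with 4 probes brighter in Cy5 and 0 in Cy3 on every array (against 10.1% and 10.8% of all unsaturated probes), and limma called 0. *Ppargc1a*, the coactivator that drives mitochondrial gene programmes, had ratios of 0.17, 0.20 and 0.70 at A_51_P279038, a mean of 0.36 ± 0.30 (SD, n = 3). Its other probe (A_52_P5945) had ratios of -0.0022, -0.29 and 0.49, so the probes parted on replicates 1 and 2. The gene was chosen for mention after its values were seen.

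**Figure D5:**
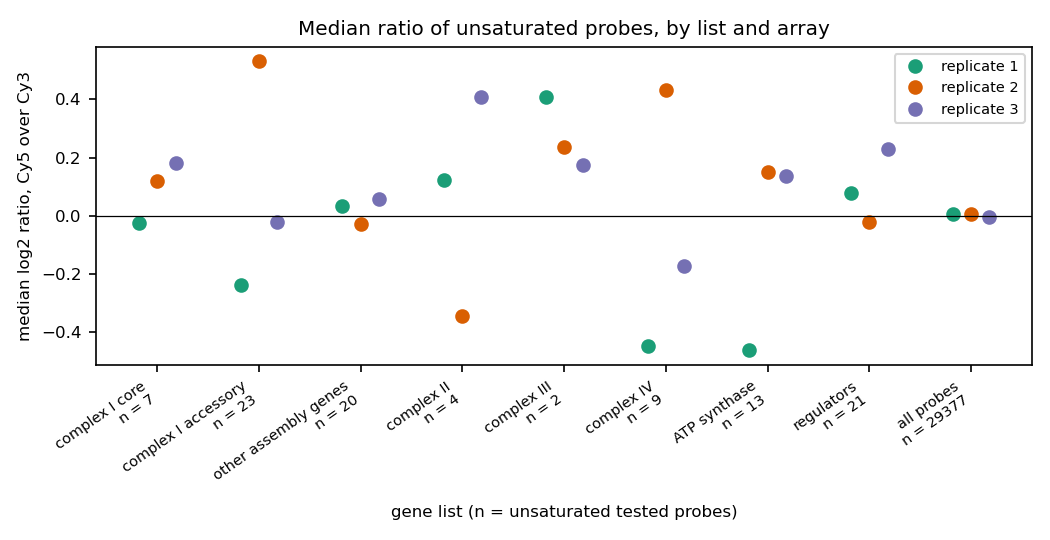
Median log2 ratio (Cy5 over Cy3) of the unsaturated tested probes of each list on replicates 1, 2 and 3, with the number of probes under each name. The accessory subunits of complex I, complex IV and ATP synthase are lowest on replicate 1 and highest on replicate 2, and the median of all probes stays within 0.01 of 0.

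Promoter sequences were matched for 34 of the 38 genes in RefSeq's table for build GRCm38.p6, with 36 windows from 250 bases before to 50 after the start of transcription. The motif of NRF1 (GCGCA, any base, then GCGC) occurred on either strand in the windows of 7 of the 34 genes (20.6%), against 5.19% of all 27025 genes in the table. These were *Ndufa11*, *Ndufa5*, *Ndufa6*, *Ndufa8*, *Ndufb4*, *Ndufs5* and *Ndufs6*. By windows it was 8 of 36 (22.2%) against 4.60%. The ETS motif ACTTCCGG occurred in 1 gene, *Ndufs3* (2.94%, against 4.31% of all genes), and TNAAGGTCA, read by estrogen-related receptors, in 1, *Ndufb4* (2.94%, against 1.43%). A match is a string of letters and not a measured site, and no link between motifs and ratios was tested. Among the genes with unsaturated probes brighter in Cy5 on all arrays, *Ndufa8* held the NRF1 motif and *Ndufab1* held none of the motifs. *Ndufa12*, another such gene, is not among the genes with a match. The window of *Ndufa8*, the gene with an unsaturated and a saturated probe brighter in Cy5 on all arrays, lies at chr2:36049289-36049588 on the minus strand, and is given 5′ to 3′ with the NRF1 letters (on the opposite strand) in capitals.
*Ndufa8* promoter: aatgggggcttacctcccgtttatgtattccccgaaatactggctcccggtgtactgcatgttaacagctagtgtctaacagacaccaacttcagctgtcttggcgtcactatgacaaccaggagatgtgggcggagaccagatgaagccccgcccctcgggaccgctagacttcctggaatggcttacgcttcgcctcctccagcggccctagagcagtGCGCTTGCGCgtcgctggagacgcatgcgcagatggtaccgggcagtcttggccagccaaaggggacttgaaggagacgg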

How the data were processed

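RNA pools of adult mouse hearts were compared on 3 two-colour Agilent arrays. The authors deposited 1 Agilent Feature Extraction (version 9.1.3.1) file per array. Mean signal intensity columns hold, as deposited, scanner values before any normalization. For the processed signal intensities the authors' software subtracted the local background and removed the dye difference within each array, first linearly and then by lowess. The deposited log10 ratio compares the processed signals of Cy5 and Cy3, and the deposited p-value belongs to 1 spot on 1 array. A second deposited table of log10 ratios holds the same values, with 1 value missing on replicate 1. No reads were aligned, and build GRCm38.p6 applies only to the promoter windows of RefSeq's table.

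Ratios were put on the log2 scale, outlier spots were left out, and spots of a probe were averaged. Each complex I probe had 1 spot. Probes with a geometric mean processed signal of at least 20 over both channels and all arrays were fitted with limma 3.58.1 in R 4.3.3 (an intercept, eBayes with an intensity trend, two-sided). The script was tested on simulated data. Alternatives were another signal minimum (0 or 50), normexp background correction (offset 50) with loess or with centring on the median, the second table, the methods' t-test, no trend, each replicate left out, and omission of saturated probes. Leaving out probes with any saturated pixel was added after seeing the data. The number of arrays limits the precision. The saturated spots of the arrays numbered 140, 150 and 197 in Cy5 and 55, 81 and 126 in Cy3 on replicates 1, 2 and 3.

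Named genes were the core subunits, *Ndufb9* and *Ndufa13*, the Ndufaf genes, unsaturated probes with 1 sign on all arrays, the 5 unsaturated probes with the largest SD, genes with both saturated and unsaturated probes, probes taken by a selection, and probes not well above background. The members, gene lists and motifs were chosen with earlier results of these data known. Values of 1 probe that this rule names are not reported here. Marker lists covered heart muscle, atrium, skeletal muscle, red blood cells, fat, brown fat, endothelium, fibroblasts and leukocytes.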

Additional observations from a re-analysis of the deposited data

How the results depend on the processing

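The count of complex I probes called by limma was 0 under every setting tried, with a lowest adjusted p of 0.069 after normexp correction with centring on the median, and the series table, the signal minimum, the omitted trend and the t-test changed no direction. After normexp correction with centring on the median, which moved the median of all probes to 0.16, the unsaturated and saturated medians of the mean ratio went from 0.091 and -0.044 to 0.43 and 0.37, 19 unsaturated and 9 saturated probes were brighter in Cy5 on all arrays, 0 saturated probes were so in Cy3, and the selection in Cy3 held 0. That selection also held 0 with saturated probes, or probes with any saturated pixel, left out, which follows from its probes being saturated. After normexp and loess, 1 unsaturated probe was brighter in Cy3 and 4 saturated ones in Cy5 on all arrays. With each replicate left out, the counts on the remaining arrays ranged from 6 to 11 (unsaturated, Cy5), 0 to 13 (unsaturated, Cy3), 2 to 4 (saturated, Cy5) and 7 to 17 (saturated, Cy3), with the highest counts in Cy3 without replicate 2. The medians then ranged from -0.042 to 0.21 (unsaturated) and from -0.36 to 0.079 (saturated), with the lowest of each without replicate 2. Requiring the same sign on fewer arrays raises such counts by construction. The cause of the other changes was not tested.

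Normexp with centring on the median reversed the mean ratio of *Ndufa11* (A_51_P279854 to 0.42 and A_52_P13436 to 0.13), *Ndufb2* (A_51_P361184, 0.35), *Ndufv1* (A_51_P364339, 0.63), *Ndufs6* (A_51_P375034, 0.50), *Ndufs1* (A_51_P379597, 0.20), *Ndufs5* (A_52_P1076033, -0.066), *Ndufb8* (A_52_P252539, 0.073), *Ndufc1* (A_52_P254795, 0.45) and *Ndufa7* (A_52_P347591, 0.25). Normexp with loess reversed *Ndufaf1* (-0.12), *Ndufs6* (-0.11, 0.023 and -0.19 at its probes in the order shown above), *Ndufv1* (0.15), *Ndufs7* (-0.074) and *Ndufs5* (A_52_P1076033, -0.0084). With a replicate left out the sign of 17 named probes changed. The ranges were -0.43 to 0.053 for *Ndufv2* (A_51_P212342), -0.031 to 0.41 for *Ndufs8*, -0.27 to 0.59 and -0.35 to 0.27 for *Ndufa7*, -0.36 to 0.31 and -0.44 to 0.22 for *Ndufa11*, -0.17 to 0.28, -0.26 to 0.20 and -0.13 to 0.26 for *Ndufs6*, -0.25 to 0.15 for *Ndufv1*, -0.32 to 0.28 for *Ndufs1*, -0.017 to 0.40 for *Ndufs5* (A_52_P1076033), -0.45 to 0.027 for *Ndufb8* (A_52_P252539), -0.47 to 0.21 and -0.26 to 0.61 for *Ndufc1*, -0.052 to 0.21 for *Ndufaf2* and -0.14 to 0.21 for *Ndufb2* (A_52_P327927). No paired analysis was possible because the design has 1 group, in which each array already sets its channels against each other.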
